A study of Homo sapiens with 6 samples.

Results

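The TM4SF genes, also called the L6 family, were followed in LS180, an established line of human colorectal adenocarcinoma cells. Members were all genes whose array symbol is TM4SF followed by a number, and 6 of 14812 named genes qualified: TM4SF1, TM4SF4, TM4SF5, TM4SF18, TM4SF19 and TM4SF20. The family was singled out because TM4SF4 was known to be higher with MYC siRNA and TM4SF5 with all 3 siRNAs in these same arrays. Its values below are therefore a description and carry no test.

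An siRNA was transfected into the cells to deplete the mRNA of beta-catenin (CTNNB1 siRNA), that of the transcription factor MYC (MYC siRNA), or MYU, a long non-coding RNA listed as VPS9D1-AS1 (MYU siRNA). Beta-catenin carries the Wnt signal into the nucleus. For every knockdown 1 Affymetrix array was paired with 1 control siRNA array, so that there were 3 pairs and 6 arrays, all of the same line. The controls paired with CTNNB1 and MYC siRNA are numbered alike in their titles, so they may be a single control, and the MYU control has another number. No group has a replicate, so no p-value or standard deviation between samples is given, and the number of arrays limits the precision.

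L6 proteins are small membrane proteins that cross the membrane 4 times, like the tetraspanins, from which they differ in sequence. They sit at the cell surface or in inner membranes and associate with integrins, growth factor receptors and other membrane proteins. TM4SF4 and TM4SF5 are known from liver, pancreas and gut epithelium, and TM4SF1, the L6 antigen, from many carcinomas and from endothelium. TM4SF18, TM4SF1 and TM4SF4 lie next to each other on chromosome 3, TM4SF19 lies elsewhere on that chromosome, TM4SF20 on chromosome 2 and TM4SF5 on chromosome 17.

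The members that stood highest were TM4SF4, TM4SF1 and TM4SF5, and the 250 bases before their RefSeq start sites are shown from build GRCh38.p14, 5′ to 3′ along the gene, to compare the control regions of genes that differed between the arrays. Capitals mark matches, on either strand, to any of 5 short motifs that were searched. Each was searched as an exact string of letters, so other forms of the same sites were neither marked nor counted. These were CACGTG, the E-box bound by MYC and its partner MAX, and CTTTGA, a form of the core bound by the TCF/LEF partners of beta-catenin. The others were TTTATG, a form of the core bound by the intestinal CDX factors, TATAAA, a form of the TATA box of core promoters, and AGATAA, a form of the core bound by GATA factors.
TM4SF4, chr3:149474447-149474696, plus strand: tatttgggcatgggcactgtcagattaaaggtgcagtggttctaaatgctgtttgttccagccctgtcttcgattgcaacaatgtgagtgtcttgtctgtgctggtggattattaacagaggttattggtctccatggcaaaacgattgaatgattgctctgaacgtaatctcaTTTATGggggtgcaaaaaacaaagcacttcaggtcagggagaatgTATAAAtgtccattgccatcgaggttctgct
TM4SF1, chr3:149377650-149377899, minus strand: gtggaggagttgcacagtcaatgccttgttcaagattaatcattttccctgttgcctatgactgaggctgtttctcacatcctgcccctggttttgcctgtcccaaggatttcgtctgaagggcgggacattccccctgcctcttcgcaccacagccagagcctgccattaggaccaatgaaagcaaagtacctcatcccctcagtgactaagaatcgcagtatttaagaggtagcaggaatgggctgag
TM4SF5, chr17:4771636-4771885, plus strand: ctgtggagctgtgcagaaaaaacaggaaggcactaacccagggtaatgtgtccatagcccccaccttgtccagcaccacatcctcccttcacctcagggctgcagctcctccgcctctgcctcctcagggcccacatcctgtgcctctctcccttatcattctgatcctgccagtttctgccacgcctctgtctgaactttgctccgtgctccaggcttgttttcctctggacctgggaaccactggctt

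In the TM4SF4 window the CDX core began at -76 and the TATA box at -31, counted from the start site. Of the members near 0, TM4SF20 held a CDX core at -205 and a GATA core at -198, both on the opposite strand, and TM4SF18 and TM4SF19 held none of the strings searched. The exact strings CACGTG and CTTTGA were not in the window of any of the 6 members. The TM4SF1 and TM4SF5 windows held none of the 5 strings. Since other forms of these sites were not searched, a window with no match is not shown to lack a site. Among 35116 promoters of the same length, the E-box stood in 6.34%, the TCF/LEF core in 11.2%, the CDX core in 9.64%, the TATA box in 10.7% and the GATA core in 9.17%. A match is a description of the letters and not evidence of binding.

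All values that follow are on the log2 scale, with base 2 assumed. The deposited values were centred within each pair by the authors, so that the knockdown array and its control carry the same size with opposite sign, and a pair keeps only their difference, knockdown minus control, apart from a trace of level in the rounding. Expression levels cannot be read from the values themselves, and the cell type could not be checked against levels of its markers.

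TM4SF4, a surface protein of intestine and liver, was the member with the largest difference in the CTNNB1 and MYC pairs. Its centred value was 1.18 in the CTNNB1 siRNA array and -1.18 in its control, a difference of 2.36, or 5.12-fold. With MYC siRNA it was 0.84, against -0.84 in the control, a difference of 1.68, or 3.20-fold. These differences held rank 31 and rank 5 from the top among 14812 genes, and a rank below counts from the top of the same genes. In the MYU pair TM4SF4 had 0.04 with the siRNA and -0.04 in the control, a difference of 0.09 at rank 3461. It was thus above its control in the CTNNB1 and MYC pairs and close to its control in the MYU pair. If the CTNNB1 and MYC pairs share a control, as their titles allow, their differences are not independent, for this or any other gene. In RNA from a whole culture, a change in the share of cells that express a gene and a change in RNA per cell cannot be told apart.

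TM4SF1, its direct neighbour, had a centred value of 0.99 with CTNNB1 siRNA and -0.99 in the control, a difference of 1.98, or 3.94-fold. With MYC siRNA the values were 0.30 and, in the control, -0.30, giving a difference of 0.61, or 1.52-fold. With MYU siRNA they were 0.24 and, in the control, -0.24, giving 0.48, or 1.39-fold. TM4SF1 was above its control in all 3 pairs, by the most with CTNNB1 siRNA. Its rank was 65 with CTNNB1 siRNA, 286 with MYC siRNA and 213 with MYU siRNA.

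TM4SF5, a liver and gut protein known for its association with integrins and with arginine transport at lysosomes, had centred values of 0.50 with CTNNB1 siRNA and -0.50 in the control. With MYC siRNA they were 0.49 and, in the control, -0.49, and with MYU siRNA 0.35 and, in the control, -0.35. The differences were 0.99, 0.99 and 0.71, or 1.99-fold, 1.98-fold and 1.64-fold. TM4SF5 thus lay just under 2-fold in the CTNNB1 and MYC pairs. Its smallest difference, in the MYU pair, held its highest rank, 42, against rank 63 in the MYC pair and rank 420 in the CTNNB1 pair.

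The other members lay close to their controls. TM4SF18, next to TM4SF1 on chromosome 3, had differences of 0.04, 0.01 and -0.07, in the order CTNNB1, MYC and MYU pair, which is kept wherever 3 differences are listed. TM4SF19, described in osteoclasts, had 0.05, 0.06 and 0.03. TM4SF20, whose cleavage and orientation in the membrane govern the activation of the transcription factor CREB3L1, had 0.02, 0.07 and 0.13. The highest rank among these 9 differences was 2432, held by TM4SF20 in the MYU pair. A gene that is silent in LS180 cells and a gene that is expressed and did not differ cannot be told apart here, since levels were removed.

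**Figure D1:**
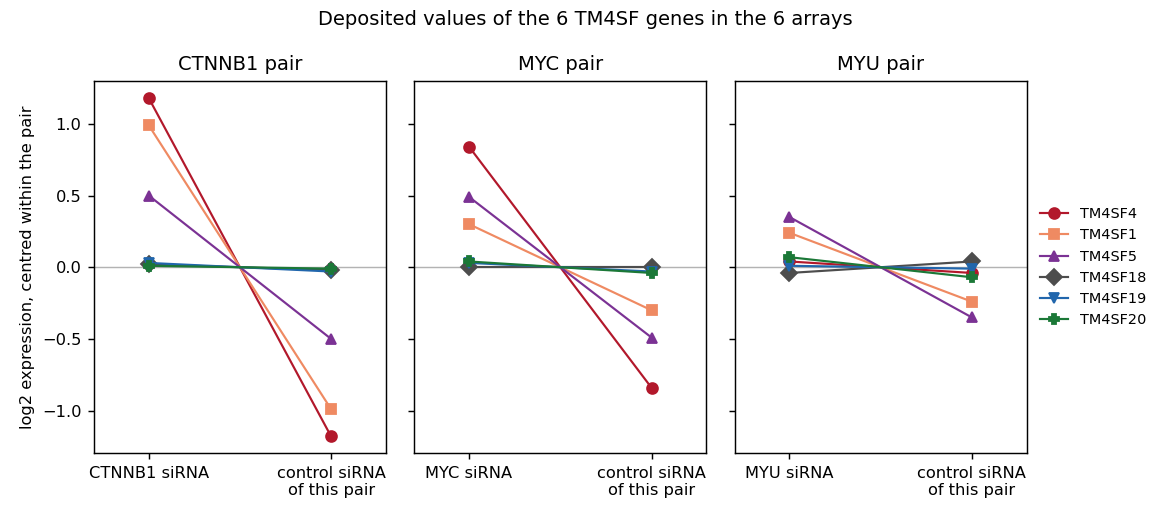
Deposited log2 values, centred within each pair, of the 6 TM4SF genes in each siRNA array (left in a panel) and its control (right), with a line joining the 2 arrays of a pair. TM4SF4 spans the widest range in the CTNNB1 and MYC pairs (differences of 2.36 and 1.68), TM4SF5 in the MYU pair (0.71), and TM4SF18, TM4SF19 and TM4SF20 stay within 0.13 in all pairs.

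Counted at 2-fold, 2 of 6 members, TM4SF4 and TM4SF1, were higher with CTNNB1 siRNA, where 2.8% of all genes were that much higher. TM4SF4 alone was 2-fold higher with MYC siRNA, beside 0.412% of all genes, and 0 of 6 were with MYU siRNA, beside 0.0608%. At 1.5-fold, TM4SF1, TM4SF4 and TM4SF5 were higher in the CTNNB1 pair (6.44% of all genes) and in the MYC pair (2.15%), and TM4SF5 alone in the MYU pair (0.668%). No member was 2-fold lower in any pair, where 4.14%, 0.446% and 0.0945% of all genes were. Since the members were chosen from these contrasts, nothing is read from these counts. The median over the 6 members was 0.52, 0.34 and 0.11, against 0 over all genes in each pair.

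The pairs differed in width, with a standard deviation over all genes of 0.51, 0.28 and 0.20. Divided by these, TM4SF4 stood at 4.66, 6.06 and 0.44 standard deviations, TM4SF1 at 3.91, 2.20 and 2.44, and TM4SF5 at 1.97, 3.56 and 3.60. On that scale the order of the pairs turned for TM4SF4, which was farther out with MYC than with CTNNB1 siRNA, and for TM4SF5, which was farthest out in the MYC and MYU pairs. For TM4SF1 the CTNNB1 pair remained the highest on both scales.

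**Figure D2:**
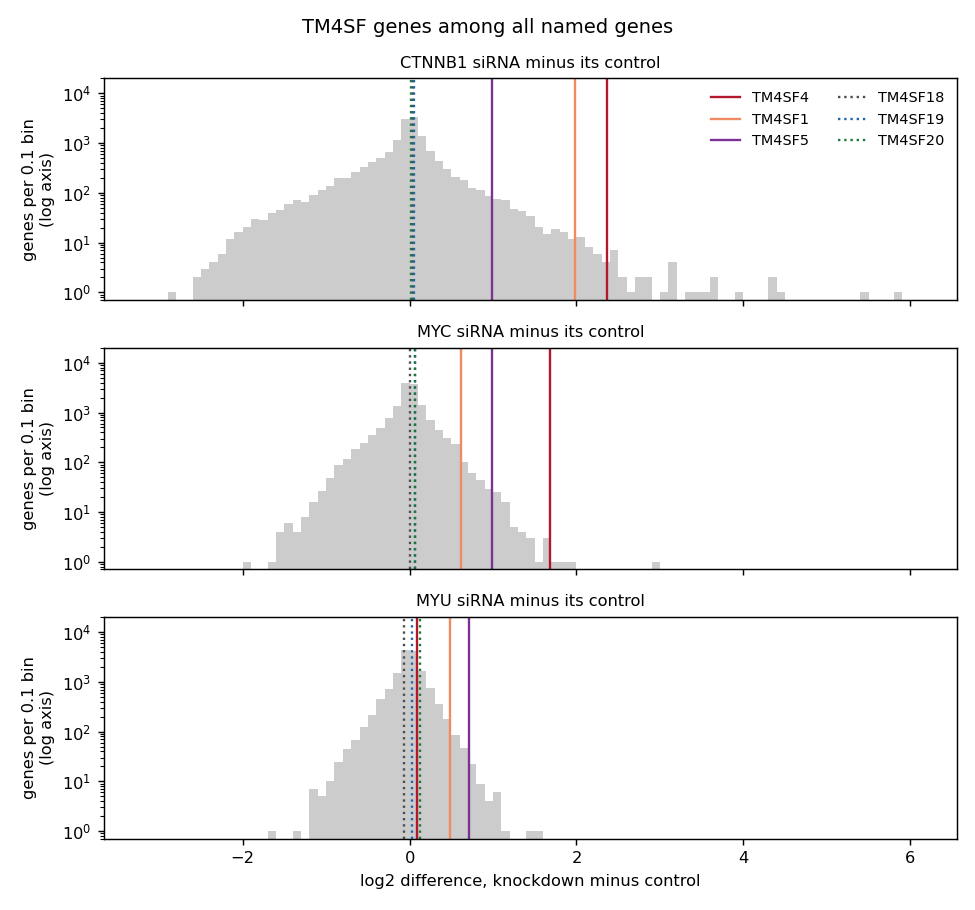
Histograms (log vertical axis, bins of 0.1) of the log2 difference, siRNA minus its control, over 14812 genes in each pair, with a vertical line for each TM4SF gene. TM4SF4 and TM4SF1 lie in the upper tail of the CTNNB1 pair (2.36 and 1.98), TM4SF4 in that of the MYC pair (1.68) and TM4SF5 in that of the MYU pair (0.71), while the dotted lines of TM4SF18, TM4SF19 and TM4SF20 stay near the centre.

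Some trace of level is left in the rounding of the values. The 2 values of a pair do not always cancel exactly, and the remainder equals the spacing of single-precision numbers, which is coarser from a log2 level of 8 upward. TM4SF1 carried the coarser remainder in all 3 pairs, as did 58 of 14161 genes with 1 probe set (0.41%), while each of the other 5 members carried the finer one in at least 1 pair and the coarser one in none. Taken at face value this puts the pair average of TM4SF1 at 8 or above, a reading that could not be checked without levels. The finer remainder does not separate TM4SF4 and TM4SF5 from TM4SF18, TM4SF19 and TM4SF20.

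The targeted transcripts bear on the labels. MYC had a difference of -1.18 with MYC siRNA and -2.38 with CTNNB1 siRNA. VPS9D1-AS1 had -0.50 with MYU siRNA, -0.53 with CTNNB1 siRNA and -0.24 with MYC siRNA. It thus lay within 2-fold of its control in every pair, and was no lower with its own siRNA than with CTNNB1 siRNA. CTNNB1 itself was not analysed here, since no probe set is listed with it, and its array is titled CTNNB1 but tagged as a CTNNB2 treatment. In the MYU pair MYC differed by 0.04. Whether the differences of the family go with those of MYC was not tested.

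Genes along the chromosome were compared to see whether the differences extended beyond the members. On chromosome 3, in RefSeq order, TM4SF18 and then TM4SF1 and TM4SF4 are followed by WWTR1, which encodes the TAZ coactivator of Hippo signalling, and preceded by CP, the ceruloplasmin gene. WWTR1 had 0.22, 0.05 and -0.01, and CP had 0.04, 0.03 and -0.03. Farther out, HPS3 had 0.28, 0.20 and -0.14, HLTF, a DNA helicase gene, -0.69, -0.47 and 0.05, WWTR1-AS1 0.08, -0.05 and -0.03, and COMMD2 -0.15, -0.19 and -0.22. The high values of this stretch were those of TM4SF1 and TM4SF4, with TM4SF18 on one side and WWTR1 on the other near their controls. TM4SF4 was already known to be higher with MYC siRNA when the family was chosen, so nothing is read from a comparison with it.

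Around TM4SF5 on chromosome 17 the picture was more mixed. CXCL16, a membrane-bound chemokine and its nearest measured neighbour on one side, had 0.78, 0.70 and 0.24, and PLD2, the phospholipase D gene, had 1.33, 0.58 and 0.22. VMO1, directly on the other side, had -0.14, -0.02 and -0.06. GLTPD2 had 0.24, 0.15 and 0.09, ALOX15, a lipoxygenase gene, -0.03, 0.01 and 0.02, and MED11, a Mediator subunit gene, 0.29, -0.80 and -0.08. CXCL16, GLTPD2 and PLD2 lay above their controls in all 3 pairs, while VMO1 lay below in all 3. TM4SF5 was already known to lie above in all 3 when the family was chosen, so nothing is read from a comparison with it.

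Near TM4SF20, the mitochondrial fission factor gene MFF had -0.26, 0.13 and 0.00, AGFG1 0.19, 0.17 and -0.09, and the chemokine gene CCL20 0.21, -1.02 and 0.01. RHBDD1, IRS1, the insulin receptor substrate gene, and DAW1 lay within 0.41 of their controls. Near TM4SF19, SLC51A, a bile acid transporter subunit gene, had 0.12, 0.01 and -0.11, UBXN7 -0.50, -0.12 and -0.15, and WDR53 -0.85, -0.61 and -0.25. SMCO1 and LINC00885 lay within 0.09 and MIR570 had 0.73, 0.82 and -0.26. Of all 24 neighbours outside the family, 1 (PLD2) was 2-fold higher with CTNNB1 siRNA and 1 (CCL20) was 2-fold lower with MYC siRNA. With MYU siRNA 0 were 2-fold apart. Over all genes 2.8%, 0.412% and 0.0608% were 2-fold higher and 4.14%, 0.446% and 0.0945% lower, so nothing is read from these counts.

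**Figure D3:**
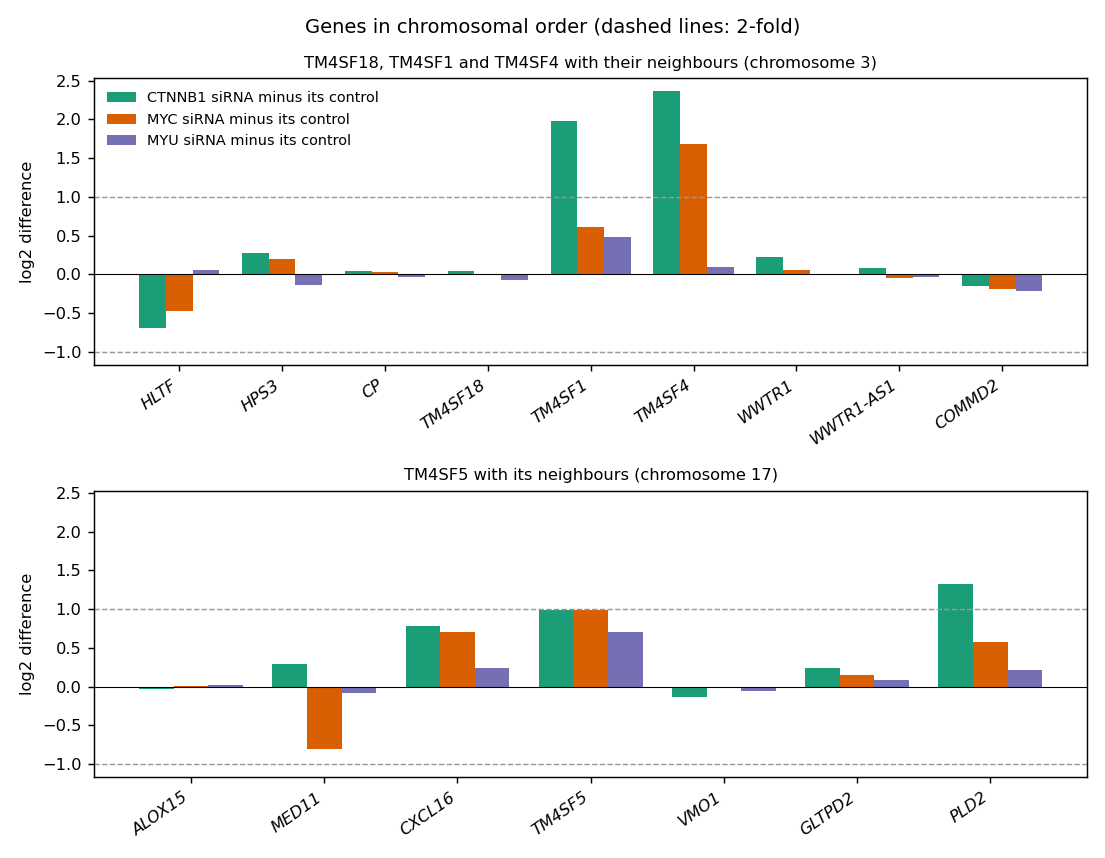
Bars give the log2 difference, siRNA minus its control, of each measured gene in chromosomal order around TM4SF18, TM4SF1 and TM4SF4 (top) and around TM4SF5 (bottom), for the CTNNB1, MYC and MYU pairs. TM4SF1 (1.98) and TM4SF4 (2.36) lie above 2-fold (dashed) between TM4SF18 (0.04) and WWTR1 (0.22), while near TM4SF5 the gene PLD2 (1.33) is also above it.

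Other proteins that cross the membrane 4 times gave a comparison by structure. Of 33 tetraspanins, which organise integrins and other receptors in the membrane, 32 were measured, and 2 were 2-fold higher with CTNNB1 siRNA, 1 with MYC siRNA and 0 with MYU siRNA, with 0 lower in any pair. Over all genes 2.8%, 0.412% and 0.0608% were 2-fold higher and 4.14%, 0.446% and 0.0945% lower. TSPAN1 had 3.03, 0.91 and -0.21, and TSPAN8, a tetraspanin of gut epithelium and colorectal tumours, had 1.17, 1.14 and 0.17. CD151, a partner of laminin-binding integrins, had 0.98, 0.70 and 0.36, and TSPAN3 0.97, 0.61 and 0.11. At 1.5-fold, 8 of the 32 were higher with CTNNB1 siRNA, 4 with MYC siRNA and 0 with MYU siRNA, beside 6.44%, 2.15% and 0.668% of all genes. The tetraspanin median was 0.10, 0.12 and 0.01, against 0 over all genes. CD53, CD37 and UPK1A, tetraspanins of blood cells and of bladder, lay within 0.11 of their controls in all pairs.

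The name TM4SF once covered a wider group, and 14 measured genes carry a TM4SF number among their RefSeq synonyms. Of these, PLLP (1.53) and TSPAN8 (1.17) were 2-fold higher with CTNNB1 siRNA, TSPAN8 (1.14) was with MYC siRNA, and 0 were with MYU siRNA, beside 2.8%, 0.412% and 0.0608% of all genes. Their medians were 0.26, 0.15 and 0.04.

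Among 26 other small 4-span membrane proteins 16 were measured. EMP1, of the peripheral myelin protein family, had 3.61, -0.23 and -0.46, and PLLP, the plasmolipin gene, 1.53, 0.18 and -0.05. CMTM7 had -1.02, -0.60 and 0.21, and LAPTM4B, a lysosomal membrane protein gene, -0.74, -0.18 and 0.44. In the CTNNB1 pair 2 of the 16 were 2-fold higher and 1 lower, beside 2.8% and 4.14% of all genes. In the MYC and MYU pairs 0 were 2-fold apart, where 0.412% and 0.0608% of all genes were higher and 0.446% and 0.0945% lower. The medians were 0.00, -0.02 and 0.18. EMP1 and the tetraspanin gene TSPAN1 (3.03) had larger differences than TM4SF4 with CTNNB1 siRNA. With MYC siRNA EMP1 lay below its control and TSPAN1 above (0.91). TM4SF4 was chosen for its value in the MYC pair, so nothing is read from a contrast there.

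**Figure D4:**
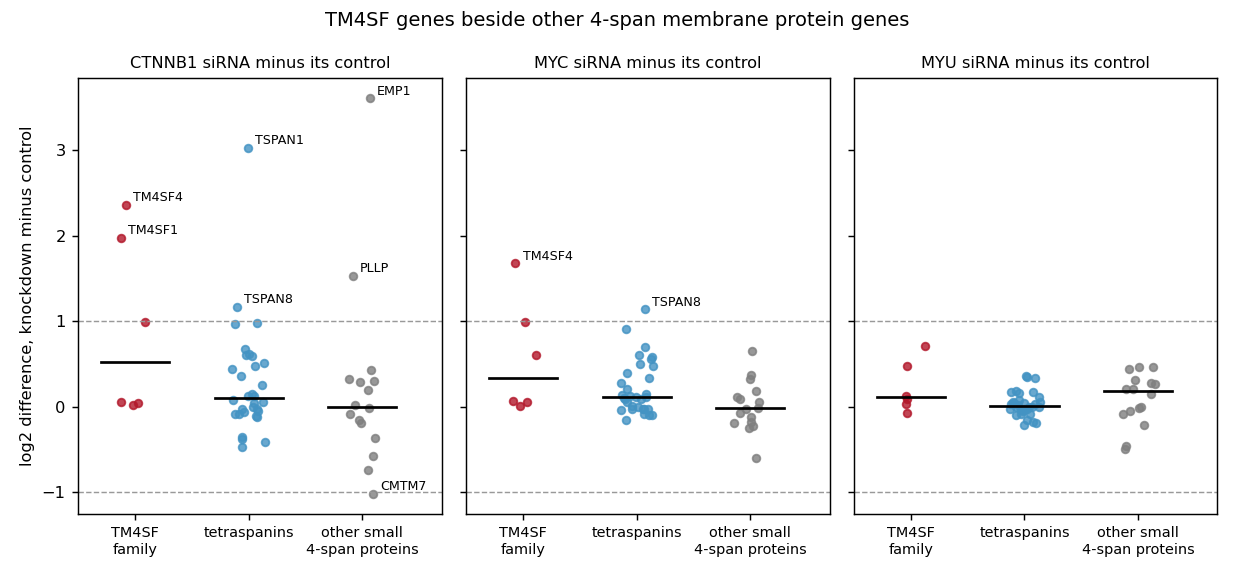
Each point is the log2 difference, siRNA minus its control, of 1 gene of the TM4SF family (6), the tetraspanins (32) or other small 4-span proteins (16) in each pair, with black lines at the medians, dashed lines at 2-fold and names beside points past 2-fold. The family spreads between genes near 0 and TM4SF4 and TM4SF1 above 2-fold in the CTNNB1 pair, and TM4SF4 and TSPAN8 are the points above 2-fold in the MYC pair.

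Known partners of the family were also followed. Of 16 listed, 8 were measured. CD44, the hyaluronan receptor with which TM4SF5 interacts, had -2.13, -0.62 and -0.26. CREB3L1, the factor processed under the control of TM4SF20, had 1.70, 0.22 and -0.08. DDR1, a collagen receptor bound by TM4SF1, had 0.94, 0.18 and 0.48 as the mean of 4 probe sets, and STAT3 0.51, 0.56 and 0.31. EGFR, IGF1R, SRC and PTK2 lay within 0.48 of their controls in all pairs. At 2-fold, CREB3L1 was higher and CD44 lower with CTNNB1 siRNA, beside 2.8% and 4.14% of all genes. In the MYC and MYU pairs 0 partners were 2-fold apart, where 0.412% and 0.0608% of all genes were higher and 0.446% and 0.0945% lower. CD44 lay below its control in every pair. TM4SF5 was already known to lie above its control in every pair when the family was chosen, so nothing is read from a contrast between them.

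Transcription factors of gut and liver were compared because TM4SF4 and TM4SF5 are genes of those tissues. Of 22 listed, 14 were measured, and 1, PROX1, was 2-fold higher, at 1.06 with MYU siRNA, beside 0.0608% of all genes. In the CTNNB1 and MYC pairs PROX1 had -0.36 and -0.49. CDX2, the master regulator of intestinal identity, had -0.42, -0.29 and -0.02, CDX1 0.30, -0.40 and 0.20, and CREB3L3 0.46, 0.11 and 0.12. The medians were 0.03, -0.01 and 0.05.

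Markers of differentiated enterocytes were split in the CTNNB1 pair, where TM4SF4 and TM4SF1 were highest. Of 23 measured, 12 were 2-fold higher with CTNNB1 siRNA, against 2.8% of all genes, among them the adhesion molecule gene CEACAM7 (5.90), the guanylin genes GUCA2A (5.46) and GUCA2B (3.60) and the intermediate filament gene KRT20 (4.39), with a median of 1.03. The other 11 lay between -0.13 and 0.17, among them the brush border enzyme genes SI (0.14), ANPEP (0.17) and LCT (0.09) and the lipoprotein genes APOA1 (-0.13), APOB (-0.11) and MTTP (0.11). With MYC siRNA 3 were 2-fold higher, against 0.412% of all genes, CEACAM7 (3.0), CDHR5 (1.45), a protocadherin of the brush border, and KRT20 (1.16), with a median of 0.06. With MYU siRNA 0 were 2-fold apart (0.0608% of all genes were that much higher), the median was 0.05 and KRT20 had -0.73. Their part in the values of TM4SF4, TM4SF1 and TM4SF5 was not tested.

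Hepatocyte markers were followed because TM4SF4 and TM4SF5 are also liver genes. Of 14 measured, including the albumin gene ALB and the transthyretin gene TTR, 0 were 2-fold apart in any pair and all lay between -0.11 and 0.17. Since 2.8%, 0.412% and 0.0608% of all genes were 2-fold higher and 4.14%, 0.446% and 0.0945% lower, nothing is read from this count. The largest sizes were those of TTR (0.12, 0.11 and 0.17), AMBP (0.11, 0.16 and 0.07), ASGR1 (0.14, 0.15 and -0.10) and ALB (0.11, -0.03 and 0.07). Of 6 fibroblast and leukocyte markers, LUM (2.78) and CD68 (2.65) were 2-fold higher with CTNNB1 siRNA, beside 2.8% of all genes. DCN (0.01), THY1 (-0.04), CD14 (-0.03) and LYZ (-0.23) were not. In the MYC and MYU pairs 0 of the 6 were 2-fold apart, where 0.412% and 0.0608% of all genes were higher and 0.446% and 0.0945% lower. LYZ had 0.74 with MYU siRNA, as the mean of 2 probe sets. The part of these markers in the values of the family was not tested either.

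The genes most like each member were taken as those with the smallest Euclidean distance over the 3 differences, which says nothing of shared function. Closest to TM4SF4 were GALNT5, which starts mucin-type glycosylation, at a distance of 0.40 (2.24, 1.39 and 0.34), CDHR5 at 0.62, the Wnt antagonist gene DKK1 at 0.67, the ceramidase gene ACER2 at 0.74 and LRP10 at 0.80. GALNT5 was the 1 gene within 0.5 of TM4SF4, a member chosen for its high value in the MYC pair, so nothing is read from that count. Dividing each pair by its standard deviation kept 2 of these 5, GALNT5 and DKK1. Of these 5, DKK1 was nearest to TM4SF4 with MYC siRNA (1.74) and MYU siRNA (0.12). With CTNNB1 siRNA DKK1 had 1.69, against 2.36 for TM4SF4. CDHR5 had -0.48 with MYU siRNA.

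TM4SF5 had 24 genes within 0.5. The closest were the metalloproteinase inhibitor gene TIMP1 at 0.18 (1.0, 0.83 and 0.62), PINK1, a kinase of mitochondrial quality control, at 0.19 (0.97, 0.90 and 0.54), and LMBRD1, a lysosomal cobalamin exporter, at 0.22 (1.16, 1.03 and 0.58). TMEM65 at 0.26 and QPRT, an enzyme of NAD synthesis, at 0.32 followed. QPRT had nearly level differences of 0.75, 0.79 and 0.77.

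TM4SF1 had 30 genes within 0.5, led by the lectin gene ZG16B at 0.11 (2.03, 0.61 and 0.58), DGAT1, an enzyme of triglyceride synthesis, at 0.14, the lipoxygenase gene ALOX5 at 0.16, the autophagy receptor gene OPTN at 0.18 and the fucosyltransferase gene FUT2 at 0.26. Neither of the other high members was among the 5 genes most like any of TM4SF1, TM4SF4 and TM4SF5.

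For the members near 0 the measure separates little. TM4SF18, TM4SF19 and TM4SF20 had 2094, 2352 and 581 genes within 0.1. Those closest to TM4SF18 were MIR498, UPP2, AMTN, MYCT1 and RHOJ, those closest to TM4SF19 were AQP4, APLF, SEPTIN4, MIR2052HG and LINC00327, and those closest to TM4SF20 were LINC01140, SUMF1, SCTR, ZC3H12B and LINC00917, all within 0.02.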

How the data were processed

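RNA was extracted with TRIsure and biotin-labelled for Affymetrix arrays, per the labels' protocols. How background, normalization and probe set summary were handled is not given in the sources used here. In the deposited table, 44629 probe sets have log2 values that the authors centred within each pair, read from the values, which sum to 0 within 1e-06 in a pair. The log base was assumed.

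The platform annotation gave 1 symbol for 15835 probe sets, several for 0, and did not list 28794. Identifiers matched RefSeq genes of GRCh38.p14 and gave 14812 genes, as the mean of their probe sets. Each TM4SF gene had 1 probe set, and all 6 matched the promoter table. Neighbours follow RefSeq order among measured genes, since the files name no build.

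The members and lists were chosen with earlier results of these data known. With 1 array per group no test was made, and a planned test of levels was not possible. Genes were counted at 2-fold, with 1.5-fold as an alternative. Named were all members, the targeted transcripts, up to 4 genes per list with the largest absolute difference (plus genes named for their small values, chosen after these were seen), 5 genes most like each member and 3 measured neighbours on either side. Motifs were also chosen after the values were seen. Further alternatives were array medians set to 0, the probe set with the smallest difference, dividing by the pair's standard deviation, and all probe sets as background. Code was tested on simulated data. Python 3.11.15, numpy 2.4.6, pandas 2.3.3 and matplotlib 3.10.9 were used.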

Additional observations from a re-analysis of the deposited data

How the results depend on the processing

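No paired analysis was possible because each group has 1 array, and for the same reason no array could be left out in turn. Centring each array on its median moved none of the 18 differences of the 6 members by more than the spread between probe sets of a gene, and the probe set nearest to 0 is the same value, since each member has 1 probe set. Putting all pairs on the width of the MYC pair moved 5 of the 18: in the CTNNB1 pair TM4SF4 to 1.29, TM4SF1 to 1.08 and TM4SF5 to 0.54, and in the MYU pair TM4SF1 to 0.67 and TM4SF5 to 1.0. The median over the members in the CTNNB1 pair then was 0.29 in place of 0.52, by construction. At 1.5-fold in place of 2-fold, 3 members in place of 1 were higher with MYC siRNA and 1 in place of 0 with MYU siRNA. Over all probe sets, 1.70% were 2-fold higher in the CTNNB1 pair, against 2.8% of named genes. Of the 10 genes most like TM4SF4 and TM4SF5, 6 remained after each pair was divided by its standard deviation, 2 of 5 for TM4SF4 and 4 of 5 for TM4SF5. Levels, the spread between controls and any control shared by pairs cannot be had from centred values.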
